A study of Mus musculus with 20 samples.

Results

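The nuclear genes of oxidative phosphorylation were examined in cultured renal myofibroblasts, the contractile, matrix-producing form of the fibroblast. Members were all protein-coding nuclear genes whose symbols name subunits of respiratory complexes I to V (Nduf, Sdh, Uqcr, Cox4 to Cox8 and Atp5), together with *Cyc1* and *Cycs*. Of 95 genes matched by symbol, 92 had at least 5 counts in at least 5 libraries and were kept, among 20407 genes kept of 51826 in the table. *Cox8b*, *Cox7b2* and *Cox8c* did not reach this minimum. The 92 members comprised 36 genes of complex I, 8 complex I assembly factors (*Ndufaf1* to *Ndufaf8*), 4 of complex II, 9 of complex III including *Cyc1*, *Cycs* alone for cytochrome c, 17 of complex IV and 17 of complex V.

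Primary renal myofibroblasts were cultured from the kidneys of C57BL/6J wild-type (WT) mice and of mice lacking WWP2 (WWP2-/-, labelled KO), a ubiquitin E3 ligase, and were left untreated or treated with TGF*β*1, the cytokine that drives myofibroblast differentiation. Each of the 4 groups (WT, WT with TGF*β*1, KO, KO with TGF*β*1) had 5 libraries, 20 in all, made from poly-A-selected RNA. The labels number the replicates 1 to 5 but do not say whether each came from a separate animal or culture, so *P* values measure the spread between these libraries only. Total counts ranged from 47520759 to 73063697 per library. *Wwp2* itself had 49.99 to 59.8 CPM (counts scaled to the size of the library) in the WT libraries and 17.0 to 22.7 CPM in the KO libraries, so the genotypes did not overlap, but counts on the gene remained in KO cells.

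Oxidative phosphorylation passes electrons from NADH through complex I, or from succinate through complex II, to complex III, then through the mobile carrier cytochrome c to complex IV, where oxygen is reduced. The proton gradient built on the way drives ATP synthesis by complex V. Most subunits are encoded in the nucleus and a small set by the mitochondrial genome, and many of the nuclear genes are known targets of the transcription factors NRF1, GABPA, YY1 and ESRRA, which the coactivator PGC-1*α* (*Ppargc1a*) acts through. All 37 genes of the mitochondrial chromosome were listed at 0 in every library, so the mitochondrially encoded subunits could not be compared with their nuclear partners.

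The promoters of 4 members are shown, chosen after the values were seen: *Cycs* and *Ndufaf4* as members called higher in KO cells under some settings with TGF*β*1, and *Ndufa3* and *Ndufs6* as members called lower under some. Others, such as *Cox6b2*, differed by more in size but were not called. Each run is the 250 bases before the annotated RefSeq start, 5′ to 3′ on the gene's own strand (GRCm38.p6), in lower case, with matches to the searched motifs in capitals.
*Cycs*, chr6:50566570-50566819, minus strand: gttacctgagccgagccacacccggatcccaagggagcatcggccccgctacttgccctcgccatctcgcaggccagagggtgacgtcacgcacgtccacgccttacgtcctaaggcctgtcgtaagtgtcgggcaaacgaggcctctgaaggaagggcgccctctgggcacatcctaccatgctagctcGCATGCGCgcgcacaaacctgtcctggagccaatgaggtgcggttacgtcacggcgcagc
*Ndufaf4*, chr4:24897833-24898082, plus strand: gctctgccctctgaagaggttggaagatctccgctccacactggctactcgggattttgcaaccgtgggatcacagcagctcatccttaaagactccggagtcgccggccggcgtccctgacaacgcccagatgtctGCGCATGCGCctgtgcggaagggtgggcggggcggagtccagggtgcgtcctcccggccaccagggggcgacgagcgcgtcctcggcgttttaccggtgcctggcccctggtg
*Ndufa3*, chr7:3617123-3617372, plus strand: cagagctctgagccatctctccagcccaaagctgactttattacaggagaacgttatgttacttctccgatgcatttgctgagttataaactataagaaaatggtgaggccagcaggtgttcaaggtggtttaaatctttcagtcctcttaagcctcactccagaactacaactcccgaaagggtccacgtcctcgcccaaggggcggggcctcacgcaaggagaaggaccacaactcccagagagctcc
*Ndufs6*, chr13:73328483-73328732, minus strand: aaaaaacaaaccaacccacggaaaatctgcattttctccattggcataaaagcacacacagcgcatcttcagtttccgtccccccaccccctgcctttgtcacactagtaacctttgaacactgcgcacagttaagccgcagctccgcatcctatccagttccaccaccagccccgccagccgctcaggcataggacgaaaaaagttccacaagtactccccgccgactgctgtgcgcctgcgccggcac

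The capitals in the *Cycs* and *Ndufaf4* promoters mark the NRF1 motif GCATGCGC, read on both strands. In *Ndufaf4* the match and its reverse complement overlap in 1 palindromic stretch. The *Ndufa3* and *Ndufs6* stretches held none of the searched motifs. Promoter windows of 300 bases (250 before and 50 after the start) were found for 73 of the 92 members, giving 78 windows. The NRF1 motif was in 13 of the 78 windows (16.7%), against 2.71% of all 32851 windows in the table. GABPA (CCGGAAG) was in 23.1% of member windows and 8.86% of all, YY1 (AAGATGGCG) in 10.3% and 1.40%, and ESRRA (CAAGGTCA) in 5.13% and 1.56%. These are matches of letters, not measured binding.

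The members were well covered. Together they took 0.606% to 0.979% of the counts of a library, and 84 of the 92 had a mean of at least 10 CPM. Per kilobase of annotated exon (the union of all exons of a gene), the highest level over all libraries was that of *Cox6a1*, a complex IV subunit, at 299.98 CPM per kb. *Atp5b*, the catalytic *β* subunit of ATP synthase, had 210 CPM per kb and the highest CPM of any member, at 888. Complex II and complex III were the most even, their members spanning 2.07-fold and 2.58-fold per kilobase. The assembly factors, which help build complex I but are not part of it, sat lower, between 3.86 and 14.9 CPM per kb. At the bottom lay *Cox4i2*, the hypoxia-inducible isoform of a complex IV subunit, at 0.233 CPM per kb and 3 to 21 counts in a library.

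The first question was how loss of WWP2 changed these genes in untreated cells. None of the 92 members passed an adjusted *P* of 0.05 in edgeR's quasi-likelihood test with Benjamini–Hochberg adjustment, where 0.725% of all genes tested did. At an unadjusted *P* under 0.05, 14 members were lower and 1 was higher in KO cells, where 6.84% of all genes were lower and 8.08% higher (14.9% in all). The Wald test of DESeq2 called 1 member, *Atp5s*, lower in KO, with 3.66% of all genes called. The directions were uneven, with 85 of 92 fitted values below 0, a median log2 fold change of −0.23 and a median over all genes of 0.08.

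By complex, all 17 members of complex IV (median −0.32), all 17 of complex V (−0.22), all 4 of complex II (−0.12), 35 of 36 of complex I (−0.30) and 8 of 9 of complex III (−0.18) were fitted below 0. The complex I assembly factors were divided, 4 above and 4 below 0 (median −0.03). *Cycs* stood on the other side, at 0.25. The members share libraries, so their number is not a number of independent measurements.

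**Figure D1:**
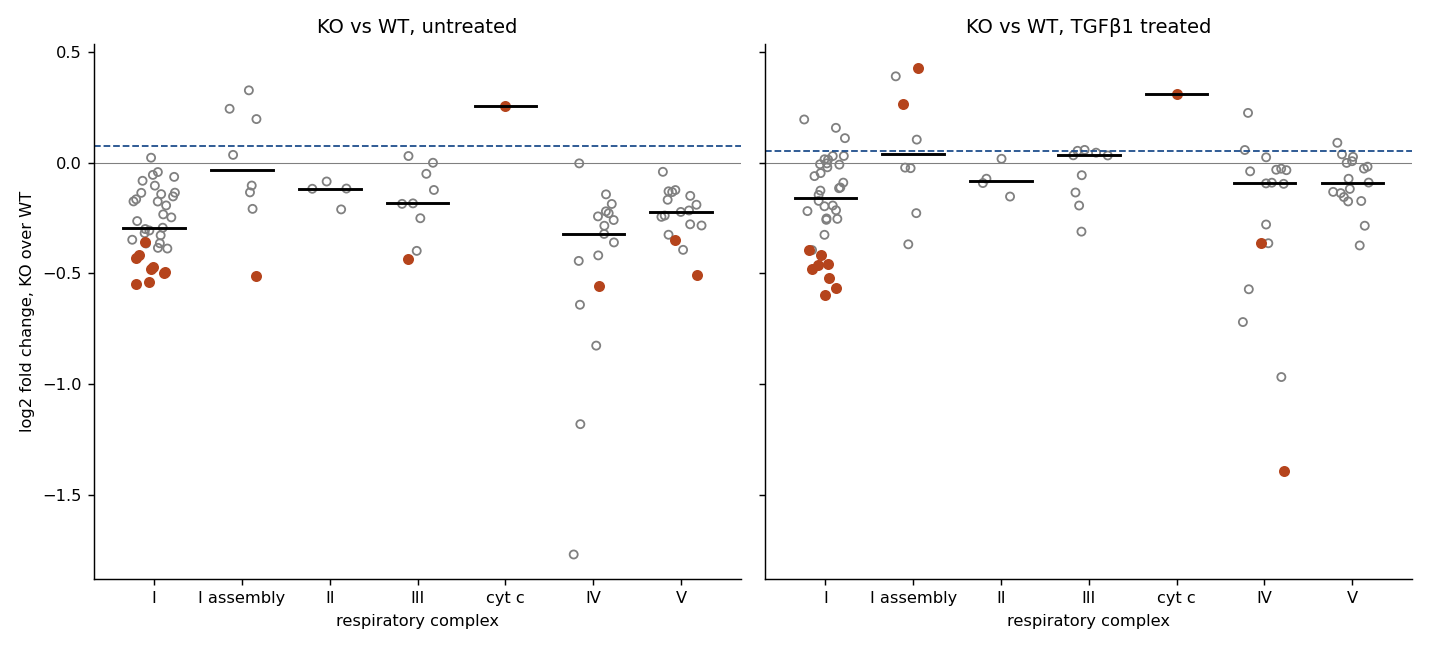
Fitted log2 fold change of KO over WT (vertical axis) of each of the 92 members, by respiratory complex, in untreated cells (left) and with TGFβ1 (right). Filled points had an unadjusted P under 0.05, black bars are medians of the members, and the dashed line is the median of all 20407 genes (0.08 and 0.05); in untreated cells 85 members lay below 0, with TGFβ1 67.

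The mean relative level of a library, the average over members of each member's log2 CPM minus its mean over the 20 libraries, showed how far the libraries spread. It was 0.05, 0.31, 0.38, 0.06 and 0.09 in WT replicates 1 to 5, and −0.10, 0.11, −0.35, 0.07 and −0.20 in KO replicates 1 to 5. KO replicates 1, 3 and 5 lay below all of the WT libraries, while KO replicates 2 and 4 lay within the WT range, so the groups overlapped. The group means were 0.18 ± 0.15 (SD, *n*=5) and −0.09 ± 0.19 (SD, *n*=5). For complex IV the separation was wider, at 0.30 ± 0.24 in WT and −0.18 ± 0.18 in KO (SD, *n*=5), and the ranges overlapped only through KO replicate 4 at 0.07 and WT replicate 4 at 0.03. This mean weighs every gene equally, also the isoform genes *Ndufa4l2* (fitted at −1.77), *Cox6b2* (−1.18), *Cox6a2* (−0.83) and *Cox4i2* (−0.64). The fitted medians of complex IV and complex I were close, at −0.32 and −0.30. The part of the isoform genes in the wider separation was not tested.

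**Figure D2:**
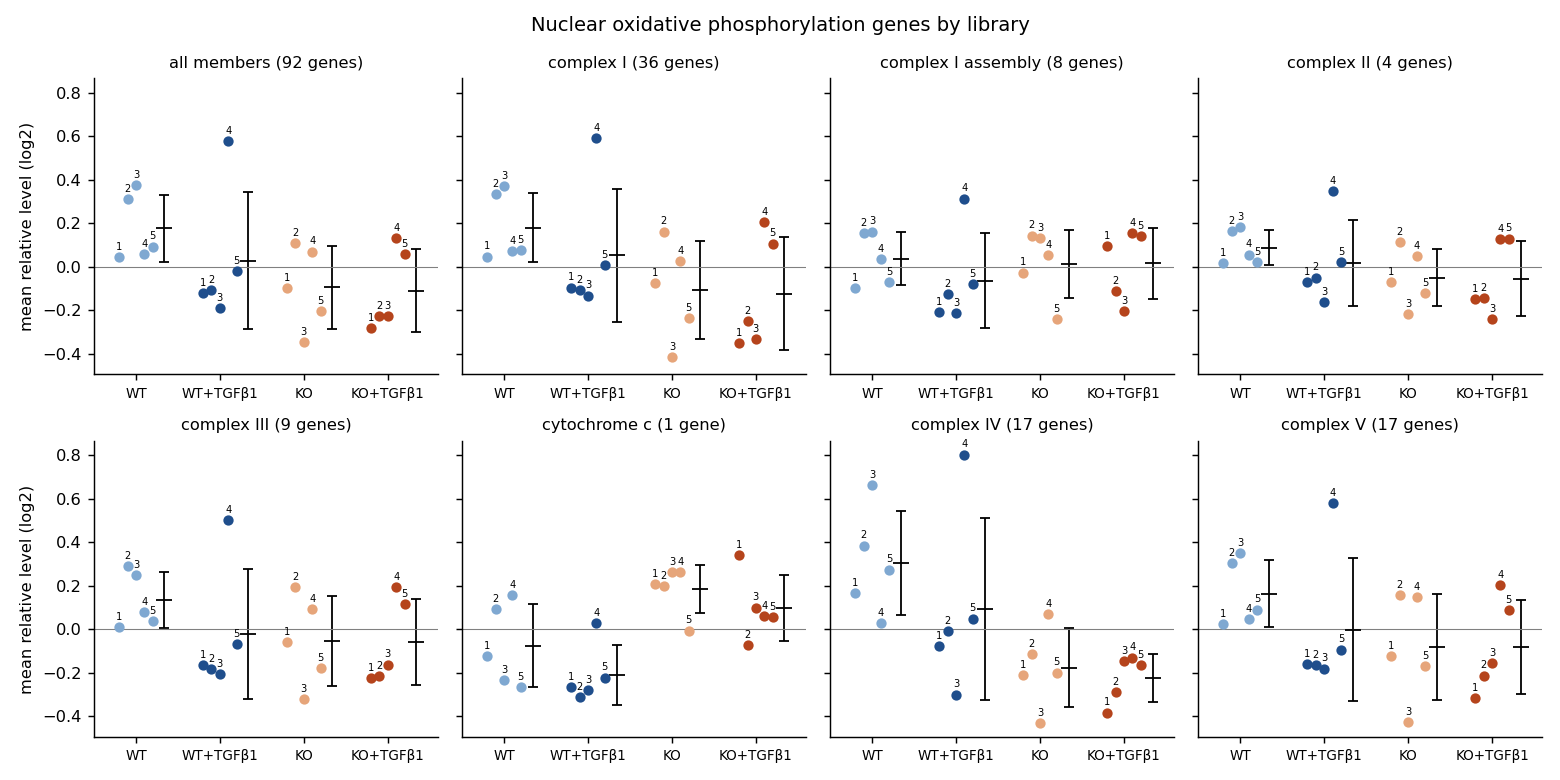
Mean relative level (log2, 0 is the mean of the 20 libraries) of all members and of each complex in each library, by group. Points carry the replicate number and the bars give mean ± SD of 5 libraries; WT with TGFβ1 replicate 4 reaches 0.58 for all members, above the other 19 libraries, and KO replicate 3 is the lowest at −0.35.

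At the level of single genes in untreated cells, the groups did not overlap for 2 members, *Ndufs6* and *Cox6b2*, both lower in KO, where 1.29% of all genes were lower without overlap. *Ndufs6*, a zinc-binding accessory subunit of complex I, had 26.9, 35.9, 37.3, 26.6 and 26.5 CPM in WT replicates 1 to 5. The KO replicates had 26.1, 24.8, 17.7, 20.6 and 16.2 CPM. The highest KO library was thus just under the lowest WT library, and the fitted log2 fold change was −0.54 (SE 0.21, adjusted *P* = 0.249).

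*Cox6b2*, the isoform of complex IV subunit 6b known from testis, differed most in size among the members above 10 CPM. It had 22.8, 28.4, 44.5, 26.7 and 23.7 CPM in WT replicates 1 to 5 and 13.3, 17.0, 1.65, 17.9 and 14.6 CPM in the KO replicates. KO replicate 3 was far below the others, and WT replicate 3 far above. Its log2 fold change was −1.18 (SE 0.58, adjusted *P* = 0.345), with a 95% confidence interval from −2.39 to 0.03.

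KO replicate 3 and KO with TGF*β*1 replicate 1 also had the lowest level of *Acta2*, the smooth muscle actin that marks myofibroblasts, at 38.9 and 50.4 CPM against 1016 to 3430 CPM in the other 18 libraries. *Cox6b2* had 1.65 and 1.31 CPM in these 2 libraries and 12.5 to 44.5 CPM elsewhere. The same 2 libraries were lowest for *Ndufb2*, a complex I subunit, at 2.96 and 2.12 CPM against 5.07 to 10.03 CPM, and for *Sdha*, the catalytic subunit of complex II, at 164 and 179 CPM against 199 to 248 CPM. Without them, the median of the members in untreated cells was −0.19 with 84 of 92 below 0, and no member passed the adjusted threshold (1.34% of all genes). Their part in the differences was otherwise not tested.

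Among the members with an unadjusted *P* under 0.05 in untreated cells, 9 were complex I subunits. *Ndufa6*, a subunit of the LYR family, had 69.7 ± 11.02 CPM in WT and 49.3 ± 7.46 in KO (SD, *n*=5), a log2 fold change of −0.50 (SE 0.17, adjusted *P* = 0.205). *Atp5s*, a coupling factor of ATP synthase, had 10.9 ± 1.55 and 8.57 ± 0.605 CPM, at −0.35 (SE 0.12, adjusted *P* = 0.204, the lowest of any member). *Cox7a2l*, a gene related to *Cox7a2* and counted here with complex IV, had 199, 239, 296, 144 and 225 CPM in WT and 130, 148, 174, 160 and 137 CPM in KO. Only WT replicate 4 fell within the KO range, and the fitted value was −0.56 (SE 0.23, adjusted *P* = 0.264).

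The largest fitted decrease among members of at least 1 CPM belonged to *Ndufa4l2*, a hypoxia-inducible paralogue of complex IV subunit *Ndufa4*, and rested on 1 library. It had 1.16, 1.08, 6.93, 0.357 and 1.39 CPM in WT and 0.532, 0.0861, 0.886, 1.03 and 0.667 CPM in KO. Its log2 fold change of −1.77 (SE 0.89, adjusted *P* = 0.357) came down in size to −0.67 when WT replicate 3 was left out.

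Among the core subunits, which carry the redox centres and catalytic sites, *Ndufs1*, which holds iron–sulphur clusters of complex I, had 77.1 ± 3.15 CPM in WT and 74.9 ± 7.62 in KO, a log2 fold change of −0.04 (95% interval −0.22 to 0.14). *Ndufv1*, the NADH-binding subunit, was at −0.15 (−0.40 to 0.10). Both intervals include 0, and neither reaches below −0.40.

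In complex II, *Sdha* was at −0.09 (−0.29 to 0.12) and *Sdhb* at −0.21 (−0.54 to 0.11), with the membrane anchors *Sdhc* and *Sdhd* both at −0.12. In complex III *Uqcrc1* was at −0.05 (−0.32 to 0.22), the Rieske protein *Uqcrfs1* at −0.12 (−0.38 to 0.14) and cytochrome c1 (*Cyc1*) at 0.00 (−0.23 to 0.23). ATP synthase *Atp5a1*, *Atp5b* and *Atp5c1*, the *α*, *β* and *γ* subunits, were at −0.12, −0.04 and −0.17. *Cox4i1*, the ubiquitous form of a regulatory subunit of complex IV, was farther from 0, at 329 ± 54.8 CPM in WT and 246 ± 48.7 in KO (SD, *n*=5), or −0.42 (−0.86 to 0.03). *Cox5b* was at −0.32 (−0.68 to 0.04) and *Cox5a* at 0.00 (−0.31 to 0.30).

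*Cycs*, which encodes the electron carrier cytochrome c, was the only member higher in KO at an unadjusted *P* under 0.05 in untreated cells. It had 68.1, 79.1, 63.1, 82.7 and 61.7 CPM in WT and 85.7, 85.2, 88.9, 89.1 and 73.9 CPM in KO. KO replicates 1 to 4 lay above every WT library and KO replicate 5 within the WT range. KO was higher by a log2 fold change of 0.25 (SE 0.10, adjusted *P* = 0.261).

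The next comparison was KO against WT when both had received TGF*β*1. Again no member passed the adjusted threshold in edgeR, while 6.07% of all genes did. At an unadjusted *P* under 0.05, 3 members were higher and 10 lower, where 13% of all genes were higher and 11.7% lower (24.7% in all). DESeq2 called 4 members, *Ndufaf4* and *Cycs* higher and *Ndufa3* and *Cox4i2* lower in KO, with 13.1% of all genes called. Of the fitted values, 67 of 92 lay below 0, with a median of −0.09 against 0.05 over all genes, and for no member were the 5 KO and 5 WT libraries fully apart (background 2.59% higher and 3.08% lower).

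This direction depended on 1 library. WT with TGF*β*1 replicate 4 was the highest of all 20 libraries for 73 of the 92 members. In mean relative level it stood at 0.58, while the other 4 WT libraries with TGF*β*1 lay between −0.19 and −0.02. The KO libraries with TGF*β*1 were at −0.28, −0.23, −0.23, 0.13 and 0.06. WT with TGF*β*1 replicate 4 was also the highest of the 20 libraries for some other gene lists, described below. Its mean relative level was 0.96 for cytosolic ribosomal proteins, 0.36 for the mitochondrial ribosome and 0.24 for assembly factors of complexes II to V. For the TCA cycle (0.13) and regulators of mitochondrial biogenesis (−0.17) it was not the highest. Without WT replicate 4, the median of the members became 0.06, equal to that of all genes at 0.06, and 33 of 92 were below 0. Complex I then had a median of 0.03, complex III of 0.14 and complex IV of 0.10. Leaving out 1 library also changed the calls. *Cycs* was called higher without WT replicate 4 (3.03% of all genes), *Ndufaf4* was called higher without KO replicate 3 (6.03% of all genes), and without WT replicate 3 *Ndufaf4* was called higher and *Ndufa3* and *Ndufs6* lower (13.4% of all genes). Without the 2 libraries of lowest *Acta2*, *Ndufaf4* was called higher and *Ndufa3* and *Cox6a2* lower, where 17.2% of all genes were called.

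*Ndufaf4*, an assembly factor of complex I, had 19.04, 18.03, 23.1, 17.1 and 17.6 CPM in WT with TGF*β*1 and 24.9, 23.9, 20.6, 30.9 and 27.0 CPM in KO with TGF*β*1. The KO libraries other than replicate 3 were above every WT library. A log2 fold change of 0.43 was fitted (SE 0.13, adjusted *P* = 0.0605). In untreated cells it was 0.24 (SE 0.13, adjusted *P* = 0.393), with 19.01, 21.2, 15.9, 23.9 and 18.6 CPM in WT and 25.1, 25.6, 24.9, 22.2 and 18.8 CPM in KO.

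*Cycs* had 61.8, 59.8, 61.2, 75.7 and 63.6 CPM in WT with TGF*β*1 and 94.0, 70.6, 79.5, 77.3 and 77.2 CPM in KO with TGF*β*1. The groups overlapped through WT replicate 4 and KO replicate 2 alone. The fitted log2 difference was 0.31 (SE 0.10, adjusted *P* = 0.0753), and it passed the threshold without WT replicate 4, at 0.38 (adjusted *P* = 0.0495). The matches to the NRF1 motif printed above were not tested against expression.

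*Ndufa3*, a small accessory subunit of complex I, had the lowest adjusted *P* on the lower side. It had 41.2, 39.5, 34.4, 75.8 and 43.9 CPM in WT with TGF*β*1 and 29.2, 29.4, 29.1, 29.0 and 38.4 CPM in KO with TGF*β*1. KO replicate 5 lay inside the WT range, and WT replicate 4 lay far above its group. The log2 fold change was −0.60 (SE 0.19, adjusted *P* = 0.0605), and −0.35 without WT replicate 4. In untreated cells *Ndufa3* had 50.1 ± 8.19 CPM in WT and 36.1 ± 6.05 in KO (SD, *n*=5), at −0.47 (SE 0.18, adjusted *P* = 0.251).

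*Ndufs6* had 24.2, 25.3, 21.9, 45.9 and 28.7 CPM in WT with TGF*β*1 and 20.1, 15.8, 14.2, 25.8 and 22.6 CPM in KO with TGF*β*1. KO replicates 4 and 5 lay within the WT range. The log2 fold change was −0.57 (SE 0.21, adjusted *P* = 0.106), and −0.34 (adjusted *P* = 0.278) without WT replicate 4. The other members lower at an unadjusted *P* under 0.05 were complex I subunits *Ndufa1*, *Ndufb11*, *Ndufa13*, *Ndufv3*, *Ndufb6* and *Ndufa5* (−0.52 to −0.39), *Cox5b* of complex IV (−0.36) and *Cox4i2*. *Ndufaf1*, another assembly factor, was higher at 0.26 (SE 0.13, adjusted *P* = 0.193). *Ndufaf6*, also an assembly factor, had fitted values of 0.39 (SE 0.21, adjusted *P* = 0.268) with TGF*β*1 and 0.33 (SE 0.21, adjusted *P* = 0.483) in untreated cells. *Ndufa4l2* was at −0.72 (SE 0.87) with TGF*β*1, and between −1.92 without KO replicate 3 and −0.43 without KO replicate 4 or 5. *Cox6b2* was at −0.57 (SE 0.57), at −0.29 without KO replicate 1 and at −0.37 without WT replicate 4. Over all libraries left out 1 at a time, it ran from −0.78 to −0.29.

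**Figure D3:**
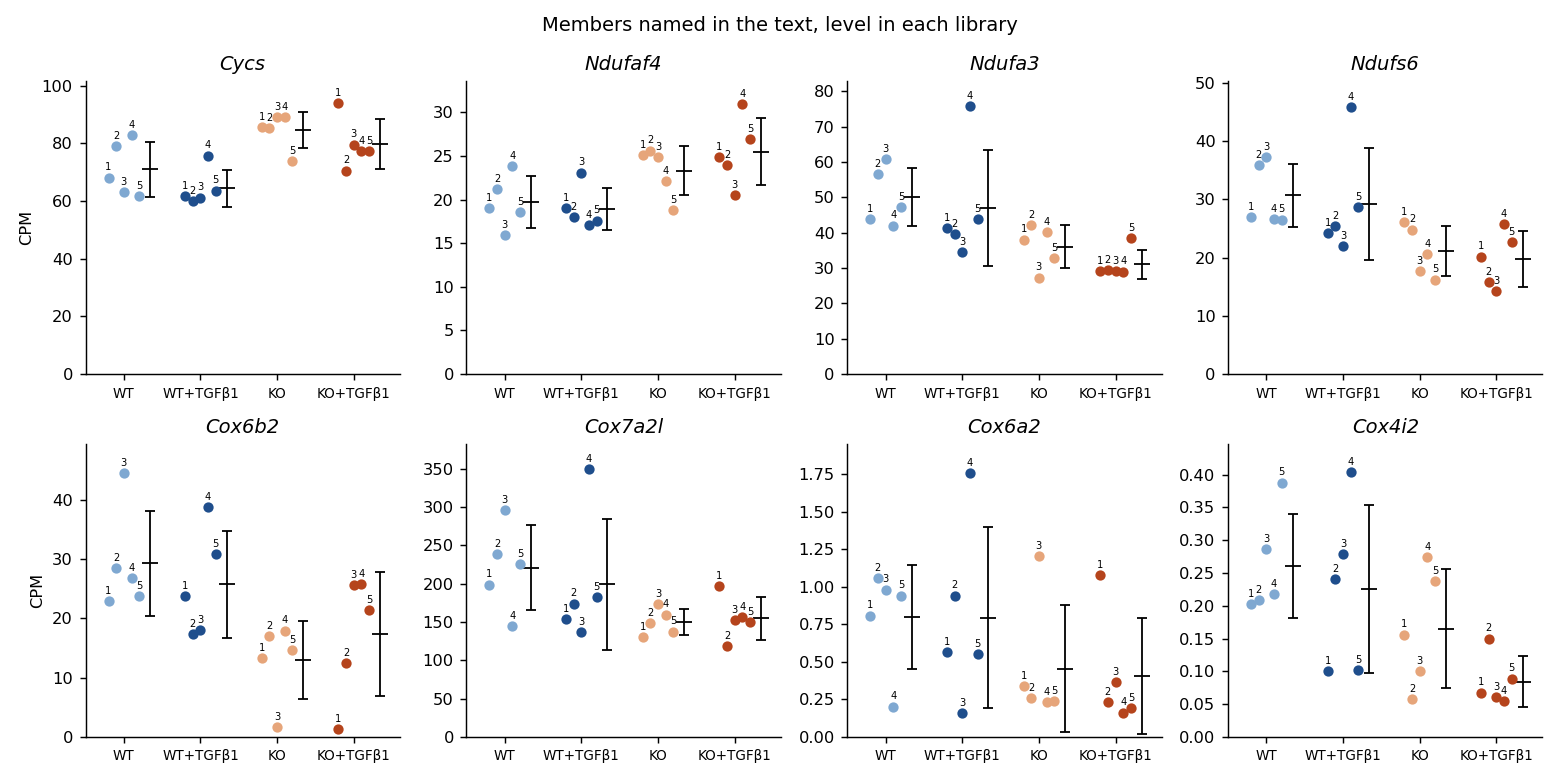
Level (CPM) of 8 members in each library, by group; points carry the replicate number and bars give mean ± SD of 5 libraries. Cycs and Ndufaf4 sit higher and Ndufa3 and Ndufs6 lower in KO libraries, with WT with TGFβ1 replicate 4 far above its group for Ndufa3 (75.8 CPM), and Cox6b2 falls to 1.65 and 1.31 CPM in KO replicate 3 and KO with TGFβ1 replicate 1.

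Several complex IV subunits have a second isoform gene used in particular tissues, and these were mostly rare here. Per kilobase, *Cox4i2* made up 0.0679% to 0.159% of the *Cox4i1* and *Cox4i2* pair in the group means. *Cox6a2*, the heart and muscle isoform, made up 0.273% to 0.360% of its pair with *Cox6a1*, and *Cox7a1*, also a muscle isoform, 1.11% to 1.30% of its pair with *Cox7a2*. *Ndufa4l2* made up 0.771% to 2.05% of its pair with *Ndufa4*. *Cox6b2* was not rare, at 14.0% ± 2.56 of its pair with *Cox6b1* in WT and 7.26% ± 3.36 in KO untreated cells, and at 14.1% ± 2.48 and 9.63% ± 5.39 with TGF*β*1 (SD, *n*=5).

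*Cox4i2* had 0.101, 0.240, 0.279, 0.404 and 0.102 CPM in WT with TGF*β*1 and 0.0674, 0.150, 0.0605, 0.0539 and 0.0888 CPM in KO with TGF*β*1. The groups overlapped through KO replicate 2, and these levels rest on few counts. The log2 fold change of −1.39 (SE 0.47, adjusted *P* = 0.0777) was the largest of any member with TGF*β*1.

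*Cox6a2* did not follow the groups but the level of *Xist*, the RNA of the inactive X chromosome. In the 11 libraries with more than 1 CPM of *Xist*, *Cox6a2* had 0.338 to 1.76 CPM, and in the other 9 it had 0.160 to 0.363 CPM. The ranges overlapped through KO replicate 1 alone, which had 33.7 CPM of *Xist*. The other 10 libraries with *Xist* had at least 108 CPM of it and 0.551 CPM or more of *Cox6a2*. *Xist* was above 1 CPM in 4, 4, 2 and 1 of the 5 libraries of WT, WT with TGF*β*1, KO and KO with TGF*β*1, so it was not balanced over the genotypes. The 2 KO libraries with the most *Xist*, at 291 and 225 CPM, were the same 2 that had the lowest *Acta2*, and the parts of *Xist* and of low *Acta2* in the values below were not tested apart. In a fit with a *Xist* term, *Cox6a2* was called higher with *Xist* (adjusted *P* = 0.000139), and *Ndufb2* and *Ndufs1* lower, where 16.6% of all genes were called higher and 17% lower. Apart from the 2 libraries of lowest *Acta2*, *Ndufb2* had 5.07 to 7.31 CPM in the libraries above 1 CPM of *Xist* and 7.44 to 10.03 CPM in the others. For *Ndufs1* the same ranges were 72.98 to 79.67 CPM and 72.98 to 82.98 CPM, so they overlapped. The log2 fold change of *Cox6a2* for KO against WT with TGF*β*1 went from −0.97 (SE 0.66, adjusted *P* = 0.386) to 0.23 with that term. That of *Cox6b2* went from −0.57 to −1.74 (adjusted *P* = 0.188) with TGF*β*1. In untreated cells it went from −1.18 to −1.98 (adjusted *P* = 0.129).

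TGF*β*1 was then compared with no treatment within each genotype. These comparisons share their untreated or treated libraries with the comparisons above. Neither comparison had a call by edgeR among all 20407 genes (0%), so none among the members, and no member had an unadjusted *P* under 0.05, against 6.85% of all genes in WT and 3.49% in KO. DESeq2 called no member in either, with 0.132% and 0.216% of all genes called. In WT, 84 of 92 fitted values were below 0 (median −0.12), and in KO 48 of 92 (median 0.00).

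WT with TGF*β*1 replicate 4 bore on this comparison as well. Without it the median in WT was −0.33, 91 of 92 members were below 0, and 47 had an unadjusted *P* under 0.05, against 11.1% of all genes, still with no member past the adjusted threshold. In KO, leaving out 1 library at a time moved the count below 0 between 15 and 76 of 92. Among members of at least 1 CPM, the values farthest below 0 in WT were those of *Ndufa4l2* at −0.56 (SE 0.86), *Atp5k*, a membrane subunit of ATP synthase, at −0.27 (SE 0.23) and *Cox7a2* at −0.26 (SE 0.19), and the highest was that of *Atp5b* at 0.04 (SE 0.10). In KO the highest were *Ndufa4l2* at 0.49 (SE 0.87) and *Cox6b2* at 0.42 (SE 0.57), and the lowest *Ndufa1* at −0.24 (SE 0.19) and *Ndufa3* at −0.22 (SE 0.18). None of these differed beyond the spread between libraries.

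The interaction asked whether the TGF*β*1 difference depended on genotype. No gene passed the adjusted threshold in edgeR (0%), no member had an unadjusted *P* under 0.05, against 6.98% of all genes, and DESeq2 called no member (0.049% of all genes). Of the fitted values, 74 of 92 were above 0, with a median of 0.12 and a median of −0.02 over all genes. Without WT with TGF*β*1 replicate 4 the median was 0.32 and 23 members had an unadjusted *P* under 0.05, against 9.39% of all genes. *Ndufa4l2* had the highest value, 1.05 (SE 1.23), followed by *Cox6b2* at 0.61 (SE 0.81). *Atp5mpl*, a small ATP synthase subunit, was at 0.33 (SE 0.31, adjusted *P* = 0.930).

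The fitted values of the members followed annotated exon length, the union of all exons of a gene, which can exceed the length of any 1 transcript. In untreated cells, the 21 members with under 1 kb of annotated exon had a median of −0.36 and all 21 were below 0, the 36 members of 1 to 2 kb had −0.27, and the 35 members over 2 kb had −0.13. Other protein-coding genes of at least 10 CPM showed the same order, at −0.23 (107 genes), −0.12 (785 genes) and 0.07 (8620 genes). With TGF*β*1 the member medians were −0.25, −0.12 and −0.03. When a trend on exon length and GC content was removed from each library, the medians of all members became −0.14 in untreated cells and −0.04 with TGF*β*1, and 78 and 56 of 92 were below 0. Then 2 members, *Ndufa3* at −0.48 and *Ndufs6* at −0.49, were called lower with TGF*β*1, where 7.12% of all genes were called. Complex IV with TGF*β*1 then had 8 of 17 members below 0 and a median of 0.01, against 14 of 17 and −0.09 without the correction.

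**Figure D4:**
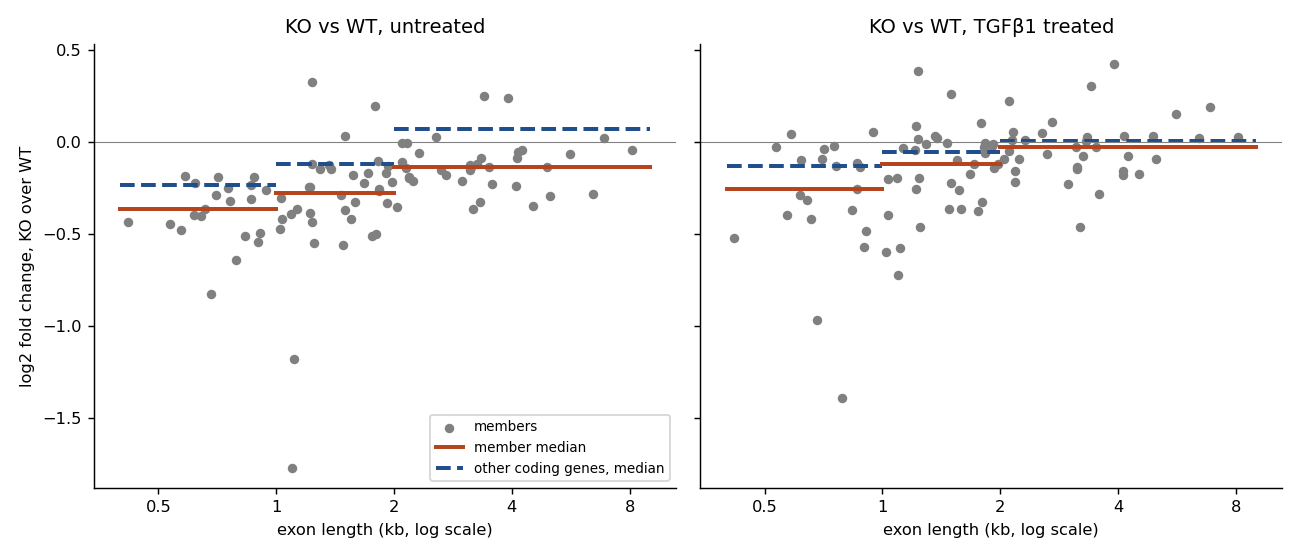
Fitted log2 fold change of KO over WT of each member (grey points) against its exon length in kb on a log axis, in untreated cells (left) and with TGFβ1 (right). Solid lines are member medians and dashed lines medians of other protein-coding genes of at least 10 CPM in each length class; in untreated cells the members go from −0.36 under 1 kb to −0.13 over 2 kb, and the other genes from −0.23 to 0.07.

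Other gene lists of the mitochondrion did not show the same median. In untreated cells the 77 tested genes of the mitochondrial ribosome had a median log2 fold change of −0.04 (31 above and 46 below 0), 14 genes of the TCA cycle 0.04, 30 assembly factors of complexes II to V −0.04, and 13 regulators of mitochondrial biogenesis 0.04, with no gene of these lists called. *Ppargc1a*, among the regulators, had a fitted value of −0.08 (SE 0.68, adjusted *P* = 0.965), and with TGF*β*1 of 1.40 (SE 0.70, adjusted *P* = 0.224). With TGF*β*1 the mitochondrial ribosome was at 0.04 with 2 of 77 genes called higher, *Mrpl38* and *Mrpl49*, where 6.07% of all genes were called, and the TCA cycle was at 0.02 with none. Outside the mitochondrion, the 86 tested cytosolic ribosomal protein genes were at −0.47 in untreated cells (84 below 0, none called) and −0.34 with TGF*β*1 (81 below 0), with 1 of 86, *Rpl22l1*, called lower. The symbol rule for this list also took in the S6 kinases and *Rps19bp1*, which are not ribosomal proteins and were left out after the values were seen. With them, the medians over 97 genes were −0.46 and −0.33.

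Markers of other cell types varied across the libraries by more than the members did. The summed level of 6 macrophage markers ranged from 73.4 to 3549 CPM, that of the tubular markers from 12.1 to 708 CPM and that of 5 endothelial markers from 6.08 to 156 CPM. Of the 9 tubular markers 7 were tested, as *Slc34a1* and *Umod* did not reach the minimum count. With TGF*β*1, the macrophage list had a median log2 fold change of 2.09 for KO against WT and the tubular list 2.16. All tested genes of both lists were then above 0. In untreated cells the medians were −0.53 and −0.43, and no gene of either list was called in either comparison. The fibroblast and myofibroblast list was at −1.98 with TGF*β*1, with 2 genes above and 7 below 0. There 3 of its 9 genes were called lower in KO, the collagens *Col1a1* and *Col1a2* and the matrix protein *Postn*. In untreated cells it was at −1.06, with 3 genes above and 6 below 0 and none called. *Acta2*, also in this list, had 1680 ± 226 CPM in WT and 1621 ± 1210 in KO with TGF*β*1 (SD, *n*=5). In untreated cells it had 1159 ± 125 CPM in WT and 2062 ± 1327 in KO (SD, *n*=5). The 5 endothelial markers were divided, with 3 above and 2 below 0 in each comparison, and medians of 0.40 with TGF*β*1 and 0.46 in untreated cells. The receptor genes *Kdr* and *Tek* were called lower with TGF*β*1 and *Tek* in untreated cells. Of all genes, 6.07% were called with TGF*β*1 and 0.725% in untreated cells. A list of 8 proliferation genes was at −1.06 with TGF*β*1 (7 below 0) and at 1.12 in untreated cells (8 above 0), with none called. WT with TGF*β*1 replicate 4, highest for the members, had 287 CPM of macrophage and 36.6 CPM of tubular markers. In bulk RNA, fewer cells of a type and less RNA per cell cannot be told apart, and the part of cell composition in the member levels was not tested.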

How the data were processed

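RNA from 20 libraries of cultured mouse renal myofibroblasts, 5 per group, was sequenced by the authors after poly-A selection. Per the methods of the study, paired-end reads were mapped with STAR to the mouse genome (GRCm38) and the deposited counts are whole numbers of fragments on exons per Ensembl gene from featureCounts. Tool versions and the strand setting are not given in the sources used here, so reads of overlapping genes and of processed pseudogenes may be split or lost, and 12 symbol matches that are not protein coding were left out. Gene symbols, exon lengths (the union of annotated exons) and GC content came from GENCODE M21.

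Genes reaching 5 counts in 5 or more libraries entered edgeR 4.0.16 (quasi-likelihood test, TMM normalization, 1 fit to all 4 groups, R 4.3.3), with Benjamini–Hochberg adjustment over all 20407 genes and a threshold of 0.05. Levels are CPM on TMM-scaled library sizes, with a prior count of 2 on the log2 scale. DESeq2 1.42.0 with its Wald test, the study's test, was an alternative, beside other size factors, other filters, a stricter threshold of 0.01, replicate blocks, a *Xist* covariate, a length and GC trend, fits to the compared groups alone and leaving out each library. The fit was also run on simulated counts, drawn independently for each library. Within a group these differed only by depth and random spread, so the simulation does not bear on libraries that stand apart. No pair of libraries was identical.

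The members and the other gene lists were chosen with earlier results of these data known. Named genes were, in each comparison, members called, or the 3 largest increases and decreases among members of at least 1 CPM where fewer were called, plus a fixed set of core subunits and isoform genes. The values of 1 member of that set are not reported here. *Atp5s*, *Ndufa6*, *Ndufs6*, *Ndufb2* and other members with an unadjusted *P* under 0.05 or a pattern across libraries were named after their values were seen, and the promoters shown were chosen likewise. Promoter sequences are from RefSeq (GRCm38.p6).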

Additional observations from a re-analysis of the deposited data

Results flagged for a closer look

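Values were flagged in groups of 5 libraries, and none was removed from the main fit. A value was flagged when its gap to the nearest other library took more than 0.71 of the range of its group, Dixon's criterion. Of 164 groups of values examined, 35 met it, and chance alone gives about 1 in 20. The members share libraries, so these are not separate events.

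Most came from WT with TGF*β*1 replicate 4, which was high. There the members took 0.979% of the counts, against 0.636% to 0.716% in the rest of the group. Its mean relative level (log2) was 0.58 for all members, 0.59 for complex I, 0.31 for complex I assembly, 0.50 for complex III, 0.58 for complex V and 0.030 for cytochrome c. The single members standing high in this library were *Cycs* (75.7 CPM), *Ndufa3* (75.8 CPM), *Ndufa1* (44.7 CPM), *Ndufa5* (43.7 CPM), *Ndufb11* (103 CPM), *Ndufs6* (45.9 CPM), *Ndufa2* (93.9 CPM), *Ndufa6* (95.1 CPM), *Uqcrh* (145 CPM), *Cox7a2l* (349 CPM), *Cox7a2* (79.1 CPM), *Atp5e* (119 CPM), *Atp5b* (1063 CPM), *Atp5k* (28.8 CPM) and *Atp5mpl* (68.2 CPM).

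KO replicate 3 stood apart for *Cox6b2* (1.65 CPM, low), *Sdha* (164 CPM, low), *Cox6a2* (1.21 CPM, high) and the assembly factor *Ndufaf5* (12.8 CPM, high). KO with TGF*β*1 replicate 1 was high for *Cox6a2* at 1.08 CPM. KO replicate 5 was low for *Cycs* at 73.9 CPM, a relative level of −0.0058. *Ndufa4l2* was high in WT replicate 3 (6.93 CPM) and in KO with TGF*β*1 replicate 3 (2.93 CPM). *Cox6b2* was high in WT replicate 3 (44.5 CPM), *Atp5b* in WT replicate 2 (970 CPM), *Sdha* in WT with TGF*β*1 replicate 5 (248 CPM) and *Ndufa3* in KO with TGF*β*1 replicate 5 (38.4 CPM). None of these was weighed against an explanation.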

How the results depend on the processing

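In untreated cells the median of the members for KO against WT stayed below 0 under every alternative run, between −0.34 and −0.14. With TGF*β*1 it ran from −0.20 to −0.04, except for 0.06 without WT replicate 4. With TGF*β*1 the number of members called was 0 in edgeR (6.07% of all genes), 4 by DESeq2 (13.1%) and 2 with the length and GC trend removed (7.12%). It was 0 to 3 when 1 library was left out, with 3.03% to 13.4% of all genes called where any member was. Without the 2 libraries of lowest *Acta2*, an alternative chosen after seeing the data, the number was 3 (17.2% of all genes). In untreated cells the number of members called was 0 throughout, except 1 by DESeq2 (3.66% of all genes), and in the other comparisons it was 0 under every alternative run. Counting depth limits the rare isoforms most, such as *Cox4i2* with 3 to 21 counts.

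The labels do not say whether same-numbered libraries share more than a number. Their deviations from the group means correlated from −0.52 to 0.44 over all pairs of groups and from −0.021 to 0.44 between KO and WT untreated libraries. In 15 of 60 pairings of a library with another group, each of 5 libraries, the own number correlated best. Correlations this mixed do not decide whether the numbers mark a pairing. *Xist* differed between some same-numbered libraries of 1 genotype. Untreated and with TGF*β*1 it had 210 and 0.12 CPM in WT replicate 3, 0.078 and 135 CPM in WT replicate 4, and 291 and 0 CPM in KO replicate 3. For the other numbers both libraries lay on the same side of 1 CPM. A shared number thus did not always go with a shared level of *Xist*. With the replicate block, 0 members were called in each comparison, as without it, and the medians were −0.25 in untreated cells and −0.08 with TGF*β*1.

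Single members that changed sign were low in level or near 0. *Ndufa4l2* was 0.26 and 0.21 for TGF*β*1 in WT with the replicate block and the nested block, −0.11 and −0.10 for TGF*β*1 in KO (0.49 without a block), and −0.37 and −0.31 for the interaction. With 1 library left out it ran from −0.85 to 0.56 in WT, from −0.69 to 0.80 in KO and from −0.12 to 1.38 for the interaction, turning without WT replicate 3 or KO with TGF*β*1 replicate 3. With *Xist* as a covariate, KO against WT with TGF*β*1 was 0.027 for *Ndufa4l2* and 0.23 for *Cox6a2*. *Cox7a1* in that comparison was 0.11 with the length and GC trend removed, and −0.21 to 0.097 with 1 library left out. For TGF*β*1 in WT, *Ndufa12* ran from −0.084 to 0.093 and *Atp5b* from −0.029 to 0.073 with 1 library left out. For the interaction, *Ndufa3* ran from −0.21 to 0.15, *Ndufv3* from −0.22 to 0.13 and *Ndufaf5* from −0.17 to 0.046. The cause was not tested.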
